A study of Homo sapiens with 2 samples.

Results

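The ERBB receptors and EGF-family ligands were followed in SNU216, a human cell line established from a gastric cancer. The genes were taken from a fixed list of 10, comprising the receptors EGFR, ERBB2 and ERBB3, the ligands AREG, EREG, HBEGF, TGFA, BTC and EPGN, and the receptor inhibitor ERRFI1. All probes that the platform annotation lists under these symbols were used. They came to 16 probes of 8 genes, out of 20046 genes with a probe of 1 symbol. AREG and EPGN are not listed under their symbols in that annotation and were not analysed here. The study measured total RNA on Illumina BeadChips with biotin-labelled cRNA and set 1 control array, from cells with a non-silencing short hairpin RNA (shRNA), against 1 array from TEAD4 knockdown cells. TEAD4 is one of the TEAD family of DNA-binding transcription factors through which the Hippo pathway cofactors YAP and TAZ act. Per the series' design text the samples are cell lines generated from SNU216. The labels give no further agent, time or hairpin, and no second culture, so every difference below is between these arrays and has no replicate check.

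The ERBB receptors are tyrosine kinases of the cell surface that pair with one another when an EGF-family ligand binds, and then signal through the RAS-ERK and PI3K-AKT cascades. ERBB2 binds no known ligand and acts as a partner, ERBB3 has a weak kinase and signals through its partners, and EGFR binds most ligands of the list. The ligands are made as membrane-anchored precursors and are released by metalloproteases of the ADAM family. ERBB2 is amplified in a subset of gastric cancers, and SNU216 is known as a line with such an amplification.

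Of 47323 probes, 18948 passed a detection p under 0.01 in the control and 18648 in the knockdown, and 11720 genes were detected on at least 1 array. The brightest probe of the targeted TEAD4 was 5.89-fold lower in the knockdown (log2 difference -2.56). Of its other probes, ILMN_2413041 was detected in the control only and was lower in the knockdown by at least 1.17-fold, and ILMN_1722824 was detected on neither array. Of 7 epithelial markers, 6 were detected on each array, KRT18 being the one not detected, whereas 0 of 5 endothelial markers were detected on either. Of 6 leukocyte markers LYZ and CD68 were detected on both arrays and PTPRC on neither, and CD68 was higher in the knockdown (1.10, and 0.66 by another probe). Of 7 fibroblast markers 4 were detected in the control and 2 in the knockdown. Those detected on both arrays, COL1A1 and COL1A2, differed by -0.29 and 0.06. DCN and LUM were detected in the control only and were at least 1.21-fold and 2.41-fold lower. LUM differed by -2.06, or by -1.03 in the deposited normalized table. The log2 signals of all 7, undetected ones included, summed to 39.7 and 36.8, and LUM made up most of the gap. For the epithelial, leukocyte and endothelial markers they summed to 79.23 and 79.95, 30.99 and 31.18, and 24.42 and 23.72. The part of these markers in the results below was not tested.

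The promoters of the detected ligands furthest apart between the arrays, HBEGF and EREG, are shown here because they carry different core elements. Each line gives the 250 bases before the RefSeq start in GRCh38.p14, 5′ to 3′ on the gene's strand, with capitals marking matches to a TATA box (TATAAA), a GC box (GGGCGG), the TEAD motif (GGAATG) or the AP-1 motif (TGANTCA) on either strand.
HBEGF: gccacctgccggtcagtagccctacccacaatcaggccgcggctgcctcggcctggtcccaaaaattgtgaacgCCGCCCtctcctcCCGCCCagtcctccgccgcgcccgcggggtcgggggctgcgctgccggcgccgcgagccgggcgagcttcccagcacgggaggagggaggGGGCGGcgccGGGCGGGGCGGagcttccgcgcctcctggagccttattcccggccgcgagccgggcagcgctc
EREG: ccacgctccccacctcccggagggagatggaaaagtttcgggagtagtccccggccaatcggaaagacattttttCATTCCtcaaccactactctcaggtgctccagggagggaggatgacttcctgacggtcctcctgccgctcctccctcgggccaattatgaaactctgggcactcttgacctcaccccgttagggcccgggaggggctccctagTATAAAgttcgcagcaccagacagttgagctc

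The HBEGF window (chr5:140346604-140346853, minus strand) held 5 GC boxes, the last pair overlapping, and no match to the other motifs, and 76.4% of its bases were G or C. The EREG window (chr4:74364895-74365144, plus strand) held a TATA box that begins 32 bases before the start and a TEAD motif that begins 175 bases before it, at 58.0% G or C. The median over all promoter windows of this length was 58.0%. Over 11 windows of 9 of the genes, all but ERBB3, a TATA box was found in 4, a GC box in 5, the TEAD motif in 2 and the AP-1 motif in 2. Of 35116 windows in the RefSeq table, 10.7% held the TATA box, 42.6% the GC box, 11.9% the TEAD motif and 6.57% the AP-1 motif. A match describes the letters of the window only, and a window without a match shows nothing about binding.

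The comparison asks how the receptors and their ligands differed when TEAD4 was reduced. The detected ligands of the list were higher on the knockdown array or near equal, and the receptors were slightly lower. Among the 8 genes, all detected on at least 1 array, 3 were at least 1.5-fold higher in the knockdown. These were HBEGF, EREG and BTC, each with its probe detected on the brighter array. BTC was detected in the knockdown only, so it passed through the array where it was brighter, and its bound was 1.18-fold. None of the 8 genes was 1.5-fold lower. Over all detected genes 7.24% were higher and 9.2% lower by the same rule. The 4 detected ligands of the list all had differences above 0 (median log2 difference 0.64, or 0.46 with BTC at its bound). The 3 receptors all had differences below 0 (median -0.22). Of all 11720 detected genes, 5348 had differences above 0 and 6359 below 0. The median over the 8 genes was -0.04, equal to the -0.04 over all detected genes.

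**Figure D1:**
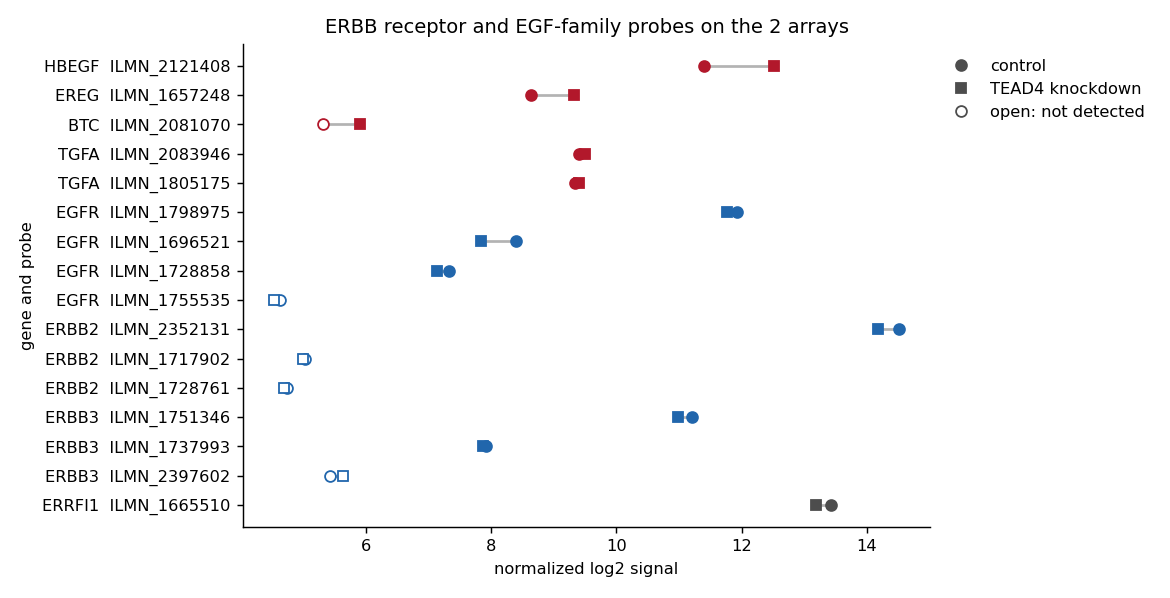
Normalized log2 signal (horizontal axis) of each of the 16 probes on the control array (circles) and the TEAD4 knockdown array (squares), ligands in red, receptors in blue and ERRFI1 in grey, with open symbols where the probe was not detected. HBEGF moved furthest, from 11.40 to 12.52, and the detected receptor probes all lie lower in the knockdown. Levels of different probes are not comparable with each other.

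HBEGF encodes heparin-binding EGF-like growth factor, a ligand of EGFR and ERBB4 whose precursor is also the receptor of diphtheria toxin. Its single probe, ILMN_2121408, had deposited signals of 2787 for the control and 5669 for the knockdown. Normalization gave log2 signals of 11.40 and 12.52. HBEGF was thus 2.19-fold higher in the knockdown (log2 difference 1.13), and it was the only gene of the 8 past 2-fold. Of the detected genes, 1.81% were higher by 2-fold and 2.34% lower, and 129 of 11720 had a higher difference than HBEGF. With the detected genes split by mean signal into 4 groups of 2930, HBEGF lay in the brightest group, in which 2.05% were at least 1.5-fold higher, against 12.6% in the dimmest.

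EREG encodes epiregulin, a ligand that binds EGFR and ERBB4 with low affinity. The deposited signal of its single probe was 397 for the control and 601 for the knockdown. The normalized log2 signals were 8.64 and 9.32, a 1.60-fold higher level in the knockdown (0.68), and 615 detected genes had a higher difference. EREG was in the second dimmest of the 4 signal groups, where 8.74% of genes were at least 1.5-fold higher.

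BTC encodes betacellulin, another ligand of EGFR and ERBB4. Its probe was not detected on the control array, with a deposited signal of 22.7 and a detection p of 0.063, and was detected on the knockdown array with a signal of 43.0. Its log2 signals of 5.31 and 5.90 differed by 0.59, just past 1.5-fold, which is 0.585 on the log2 scale. As the control signal is not distinguished from background, the level was at least 1.18-fold higher in the knockdown. In the deposited normalized table the BTC difference was 0.26, and with an offset of 50 it was also under 1.5-fold, so that 2 of the 8 genes, HBEGF and EREG, were past 1.5-fold there. BTC was in the dimmest of the 4 signal groups.

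TGFA encodes transforming growth factor alpha, a ligand of EGFR. Its 2 probes were detected on both arrays. The brighter had deposited signals of 686 in the control and 681 in the knockdown, and log2 signals of 9.41 and 9.50 after normalization. The dimmer had 653 and 640, and 9.34 and 9.41. Their log2 differences of 0.09 and 0.07 were near equal, and TGFA showed almost the same level on the arrays, unlike HBEGF and EREG. With a bound of only 1.18-fold, BTC cannot be told apart from TGFA in this respect.

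EGFR had 4 probes, of which 3 were detected on both arrays. The brightest, ILMN_1798975, had deposited signals of 4028 in the control and 3313 in the knockdown. Its log2 signals were 11.93 and 11.76, a level 1.12-fold lower in the knockdown (-0.16). ILMN_1728858 differed by -0.19. ILMN_1696521 had deposited signals of 334 and 205 and differed by -0.56, a 1.48-fold lower level. The annotation assigns this last probe and ILMN_1755535, which was detected on neither array, to the same shorter EGFR transcript, and ILMN_1728858 to another shorter one. These transcripts encode receptor forms without the kinase. Whether the probes also bind the full-length transcript was not tested.

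ERBB2 was measured by ILMN_2352131, with deposited signals of 23656 in the control and 18131 in the knockdown. Its log2 signals of 14.51 and 14.18 correspond to a 1.25-fold lower level in the knockdown (-0.33). The other 2 ERBB2 probes were detected on neither array and give no second measurement. ERBB3 had deposited signals of 2449 and 1930 by its brightest probe, with log2 signals of 11.20 and 10.98, a 1.17-fold lower level (-0.22). A dimmer ERBB3 probe detected on both arrays, annotated to a short secreted form, differed by -0.06, and the remaining probe was not detected. In the ranking of all detected genes by difference, 21.5% lay below ERBB2, 29.9% below ERBB3 and 36.3% below EGFR. The receptor differences therefore sit well inside the bulk of genes.

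ERRFI1 encodes MIG6, a feedback inhibitor that binds the kinase domains of the ERBB receptors and is itself induced by their signalling. Its single probe had deposited signals of 11287 in the control and 8972 in the knockdown. The log2 signals were 13.43 and 13.18, a 1.19-fold lower level in the knockdown (-0.25). ERRFI1 thus differed in the direction of the receptors and opposite to HBEGF and EREG. That direction was shared by 6359 of 11720 detected genes, and 27.4% of them lay below ERRFI1 in the ranking by difference.

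**Figure D2:**
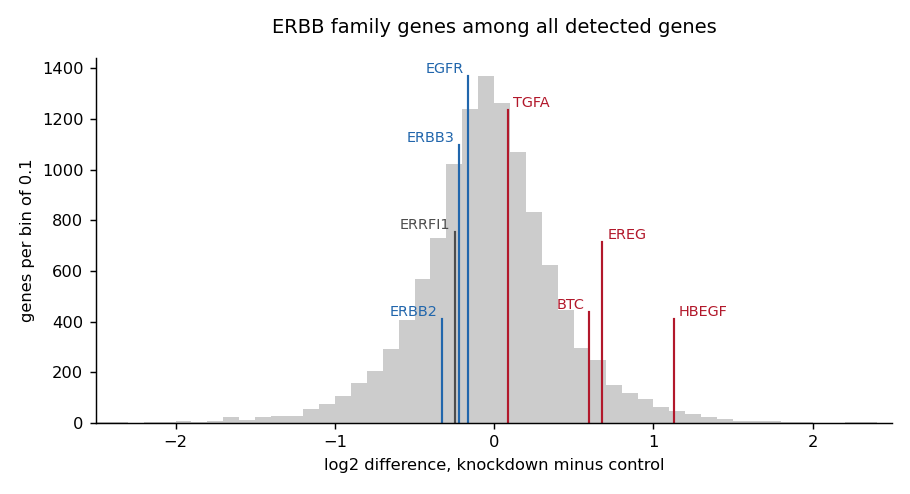
Number of detected genes (vertical axis) per bin of log2 difference, knockdown minus control (horizontal axis), for 11720 genes, with the 8 ERBB family genes marked by lines whose heights carry no value. HBEGF at 1.13 lies in the right tail and the receptors between -0.33 and -0.16 lie near the centre.

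The nearest available measure of technical error on these arrays is the spread between probes of one gene. Such probes can be assigned to different transcripts, as for EGFR and ERBB3, so this spread can also hold differences between transcripts. It was taken, over all signal levels together, from the pair of brightest probes of 2497 genes that had such a pair detected on both arrays. The standard deviation of the gap between the log2 differences of a pair, scaled to a single probe, was 0.31. The differences of HBEGF and EREG exceeded it. BTC, with a bound only, was not set against it. The difference of ERBB2 was about as large, and those of EGFR, ERBB3, ERRFI1 and TGFA were smaller. All probes of an array see the same RNA and hybridization, so differences between cultures are not in this spread, and culture or array cannot be told apart from the knockdown.

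Across the main setting and 9 alternatives, the HBEGF difference ranged from 1.07 to 1.13 and the EREG difference from 0.61 to 0.68, and both were past 1.5-fold in all 10. EGFR ranged from -0.31 to -0.15, ERBB2 from -0.33 to -0.14, ERBB3 from -0.29 to -0.03 and ERRFI1 from -0.27 to -0.22, always below 0. BTC ranged from 0.26 to 0.65 over the 9 settings in which it was measured.

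**Figure D3:**
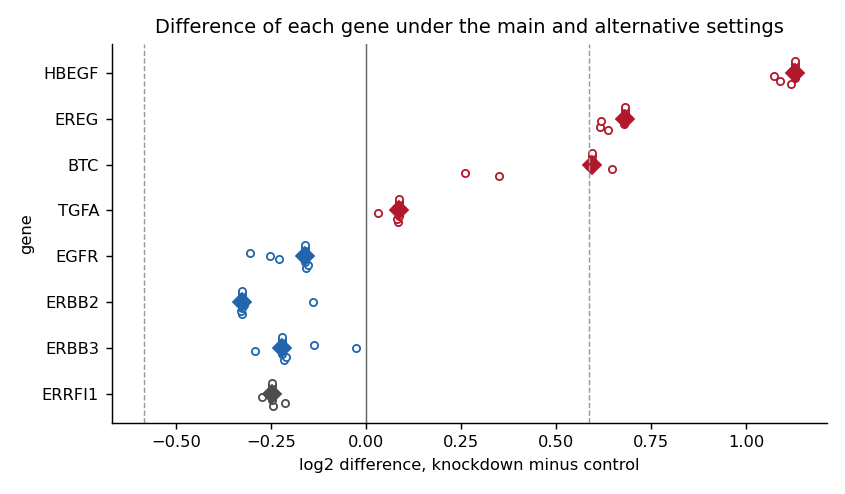
Log2 difference, knockdown minus control (horizontal axis), of each of the 8 genes under the main setting (diamonds) and the alternatives (open circles), with dashed lines at 1.5-fold. HBEGF and EREG lie beyond the line under every setting, BTC falls on both sides of it, and no receptor reaches it.

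The wider pathway was described by lists of other ERBB genes. Of 83 listed genes, 72 have a probe under their symbol and 64 were detected. Over these 64, 7 were at least 1.5-fold higher and 4 lower, with a median of 0.04, against the 7.24% and 9.2% of all detected genes given above. Of the other 6 family members, only NRG1 and NRG4 were detected. NRG1, a neuregulin that binds ERBB3 and ERBB4, had log2 signals of 9.58 in the control and 9.01 in the knockdown (-0.57), just short of 1.5-fold. Of its other detected probes 1 differed by -0.57 as well and 1 by 0.07. NRG4 differed by 0.15. ERBB4 and EGF were detected on neither array, nor were NRG2 and NRG3.

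Of 9 detected genes of ligand shedding and trafficking, 2 were lower by 1.5-fold and 0 higher, with a median of -0.05. Among all detected genes 9.2% were lower and 7.24% higher. In neither of the 2 lower genes did a further detected probe show the change. ADAM17, the main protease that releases TGFA, AREG and HB-EGF, was 2.16-fold lower by its brightest probe (log2 signals 9.57 in the control and 8.46 in the knockdown, difference -1.11). Its other detected probe differed by 0.33, in the opposite direction, so the ADAM17 difference depends on the probe. CD9, a tetraspanin that associates with the HB-EGF precursor, was 1.58-fold lower (-0.66), and its other detected probe differed by -0.02. The protease ADAM10 differed by -0.17, and the iRhom genes RHBDF1 and RHBDF2, whose products carry ADAM17 to the surface, by -0.05 and -0.03, with other RHBDF2 probes at -0.04 and 0.39.

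For comparison with each list that follows, 7.24% of all detected genes were higher and 9.2% lower by the 1.5-fold rule. Among 12 detected negative regulators of the receptors, 2 were lower and 0 higher, with a median of 0.02. Both were of the CBL family of ubiquitin ligases, which mark activated receptors for degradation. CBLB was 1.80-fold lower (log2 signals 10.50 and 9.65, difference -0.85) and CBLC 1.56-fold lower (11.08 and 10.44, difference -0.65), each by a single probe. CBL itself differed by -0.04 and LRIG1, a membrane protein that lowers receptor levels, by 0.08. None of 13 detected adaptor genes reached 1.5-fold by its brightest probe. Of those detected on both arrays VAV2 was highest (0.49) and GAB2 lowest (-0.48), and GAB1, detected in the knockdown only, was at least 1.04-fold higher. Dimmer detected probes differed by 1.01 for GRB2, whose brightest gave 0.13, and by -0.62 for NCK1, whose brightest gave -0.03, so these genes depend on the probe. Of 6 detected RAS-ERK genes 1 was higher, against 7.24% of all detected genes, and 0 were lower. This was the kinase gene MAP2K2 (10.55 and 11.33, difference 0.78), by its single probe. The lowest was HRAS (-0.22), whose other detected probe differed by 0.31 in the opposite direction. None of 7 detected PI3K-AKT genes reached 1.5-fold, with PIK3CB highest (0.53) and PIK3R3 lowest (-0.57).

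Among genes that ERK signalling is known to induce, 6 of 15 detected were higher in the knockdown by 1.5-fold or more and 0 were lower by as much. Over all detected genes the shares were 7.24% and 9.2%. The list was chosen with earlier results of these data known, so the count is no test of it. The list's median was 0.13, and the other 9 lay between -0.56 and 0.46. SPRY4, a feedback inhibitor of receptor tyrosine kinase signalling, had log2 signals of 6.31 in the control and 7.67 in the knockdown (1.36). The transcription factor genes FOS (1.03), FOSL1 (0.91) and ETV4 (0.62), the ERK phosphatase gene DUSP6 (0.86) and the early response gene IER3 (0.90) were the others. A second probe was detected for ETV4 alone among these 6 genes, and it differed by 0.43. SPRY4 and DUSP6 were dim, and in the deposited normalized table they differed by 0.85 and 0.60, while ETV4 at 0.39 was under 1.5-fold there. SPRED2 was the lowest of the list (-0.56), and SPRY2 differed by -0.39.

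The 17q12 genes that flank ERBB2 and are often amplified with it showed small differences, like ERBB2 itself. Of 7 detected, 6 had differences below 0, CDK12 by almost nothing, with a median of -0.13. Among all 11720 detected genes, 6359 lay below 0. PGAP3 alone of the flanking genes was past 1.5-fold (11.81 and 11.18, difference -0.63), against 9.2% of all detected genes lower by this rule. GRB7, an adaptor that binds ERBB2, differed by -0.12 (-0.49 by a dimmer probe), STARD3 by -0.20 and MIEN1 by -0.13. TCAP was the one gene above 0 (0.33).

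**Figure D4:**
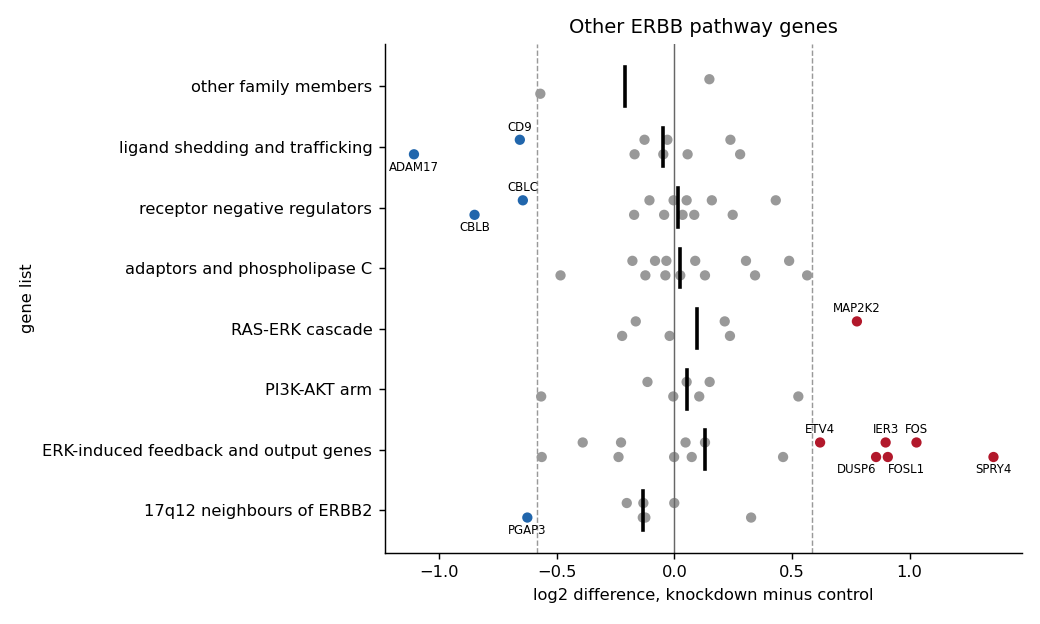
Log2 difference, knockdown minus control (horizontal axis), of every detected gene of the 7 ERBB pathway lists and of the 17q12 list (rows), with black bars at the list medians, dashed lines at 1.5-fold and names for the genes past it. The ERK-induced list holds 6 of the 7 pathway genes past the right line, and the genes past the left line belong to shedding, the CBL family and the ERBB2 flank.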

How the data were processed

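Total RNA of 1 control and 1 TEAD4 knockdown sample was hybridized to Illumina BeadChips, per the labels' protocols. The deposited intensity of each probe is on a linear scale and not normalized between arrays; values below 0 (12861 probes in the control, 12895 in the knockdown) show that background was subtracted before deposit. The file headers also give a deposited detection p-value for each signal. A further deposited intensity table is quantile normalized and served as an alternative. The software that made them is not given in the sources used here.

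Signals were corrected and quantile normalized with neqc of limma 3.58.1 in R 4.3.3 (offset 16, background inferred from the detection p-values), in log2. The offset understates folds of dim probes. Differences are knockdown minus control. Of several probes of a gene, the one with the highest mean over both arrays stood for it. A gene was called when past 1.5-fold with its probe detected (p under 0.01) on the brighter array. Where 1 array lacked detection, a bound was computed against the higher of the dim signal and the lowest detected signal of that array. Symbols came from the platform annotation, and all 8 measured genes matched RefSeq (GRCh38.p14) by Entrez identifier. The probes' genome build is not given in the sources used here. No test between groups was possible with 1 array each. On simulated data for this comparison (20046 genes, 200 of them changed by 1 on the log2 scale), 90.0% of the changed genes were called in the right direction, and 4.9% of the other detected genes were called. The changed genes were drawn from genes detected on both arrays. The noise was the spread between probes and a small background term, without variation between cultures. The simulation therefore does not cover genes detected on 1 array only and gives no rate of false calls for these arrays. The genes and lists were chosen with earlier results of these data known. From each list the text names every gene past 1.5-fold or the highest and lowest, and further genes were chosen after their values were seen.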

Additional observations from a re-analysis of the deposited data

How the results depend on the processing

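No paired analysis was possible because there is only 1 array per condition, and for the same reason no replicate could be left out. Of 143 values recomputed under 9 alternatives, 132 stayed within their tolerance and 0 changed the sign of a called gene. The tolerance was the SD per probe for genes, a smaller shift for medians and 1.5 times for counts. The counts of all genes past 1.5-fold, 848 higher and 1078 lower, were 550 and 710 with an offset of 50, and 447 and 530 in the deposited normalized table, where BTC differed by 0.26. Median scaling gave 7 in place of 4 lower pathway genes and a pathway median of -0.020 in place of 0.04. Averaging all probes of a gene gave 4 higher and 2 lower pathway genes, and averaging detected probes gave 2 lower. Detection on both arrays, which drops BTC, gave a median of -0.16 over the 7 remaining ERBB family genes in place of -0.04. Other causes were not tested. Signal over background limits the dim probes, BTC among the family genes.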

Other observations

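EREG and BTC lie on chromosome 4 beside the CXC chemokine genes, and values along that stretch are given as a description chosen after the data had been seen. From CXCL8 to BTC the RefSeq table of GRCh38.p14 lists 14 protein-coding genes, of which 11 have a probe and 8 were detected. Of these 8, 7 were at least 1.5-fold higher in the knockdown and 0 lower, against 7.24% higher among all detected genes. CXCL6, CXCL5 and BTC entered this count only through the knockdown array, where they were brighter. The stretch was also drawn around EREG and BTC, with called genes at both ends, so the count is no test of the region. Their median log2 difference was 0.83, or 0.50 with the genes detected in the knockdown only at their bounds. In chromosomal order the differences were 1.63 for CXCL8, 0.59 for CXCL6 (detected in the knockdown only, at least 1.25-fold higher), 1.65 for CXCL1, -0.43 for PPBP, 1.05 for CXCL5 (detected in the knockdown only, at least 1.11-fold higher), 0.99 for CXCL2, 0.68 for EREG and 0.59 for BTC. In the deposited normalized table CXCL6, CXCL5 and BTC were under 1.5-fold, at 0.26, 0.51 and 0.26. The CXCL1, CXCL2 and CXCL3 transcripts are near-identical in part, so their values are uncertain. HBEGF lies on chromosome 5 and is not part of this stretch.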
